A study of Arabidopsis thaliana with 47 samples.

Results

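The first hour of a light response was measured in Arabidopsis thaliana seedlings that had never met lincomycin, an antibiotic that blocks translation in plastids. The comparison was fixed by the labels: 4 arrays taken 1 h after the seedlings were moved into brighter light were set against 0 h arrays 1 to 4, taken just before the move, which makes 8 of the 47 arrays of the series. All 8 samples were whole Col-0 (wild-type) seedlings, 7 days old, on medium with 2% sucrose. After cold treatment the seeds were given 1 h of red light at 125 µmol per square metre per second and 23 h of darkness. They were then raised for 6 days at 21 °C under dim blue plus red light of 0.5 µmol per square metre per second. The 1 h seedlings had then spent 1 h at 60 µmol per square metre per second, and the 0 h seedlings none. Each sample pooled 50 to 100 seedlings, and the 4 replicates of a group were grown separately. No group stayed in dim light for the added hour, so light and the passing of 1 h cannot be told apart. Other groups of the series are used below only to place the 1 h values: 4 arrays at 0.5 h, 4 at 4 h and 3 at 24 h without lincomycin, a second set of 4 arrays at 0 h (numbers 5 to 8), and 3 arrays at 1 h and 4 at 0 h from seedlings grown on 0.5 mM lincomycin.

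Light reaches the genes of a seedling through phytochromes (red light receptors) and cryptochromes (blue light receptors). In darkness and weak light the COP1-SPA ubiquitin ligase removes HY5, a bZIP transcription factor that promotes greening, while PIF transcription factors keep up the stem growth of shaded plants. Brighter light reverses both, and it also calls for pigments and proteins that guard chloroplasts against excess energy.

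RNA was hybridised to Affymetrix arrays on which most genes have 1 probe set, a group of short probes read as 1 signal intensity. The deposited signals had the same 2% trimmed mean of 500.04 on all 8 arrays, and their medians lay between 188 and 206. Rank correlations over all probe sets were 0.970 to 0.977 between arrays of one group and 0.959 to 0.968 between the groups. A labelling control, the Dap spike-in probe set, read 3.44 to 4.73 on the log2 scale on the 1 h arrays and 2.74 to 4.33 on 0 h arrays 1 to 4, against 9.85 to 10.1 on 0 h arrays 5 to 8. The labels name no batch behind this gap. Arrays 5 to 8 serve here as the base for the 4 h and 24 h arrays and, where said, as another base for 1 h values. The lincomycin arrays at 1 h and 0 h read 10.0 to 10.6, so each response, with or without the drug, was taken within arrays of like Dap level. The part of this gap in the difference between the responses was not tested. The 29 photosystem and electron transport genes measured summed to 256764 to 264045 at 1 h and 243350 to 265729 at 0 h. No member of a list of 7 root markers was called, where 9.07% of all probe sets were. The root markers' summed signal was 22025 to 24699 at 1 h and 21533 to 26504 at 0 h. Of 5 seed markers, 4 lay at or below the dim floor in both groups, and the floor was the first quartile of an array's signals. Of 5 stomatal markers 1 (SPCH) was called higher, with overlapping arrays, and of 5 vascular markers 1 (XCP1) was called lower (-0.53 ± 0.15). These calls were each lost in 6 of 8 fits that each left out 1 array, and the part of either cell type in the results was not tested. These whole-seedling values cannot tell fewer cells of a type from less RNA per cell.

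At 1 h, 2064 of 22746 probe sets differed from 0 h by limma's moderated test after Benjamini-Hochberg adjustment (9.07%), 1096 of them higher (4.82%) and 968 lower (4.26%). Counts from gene lists below are to be read beside these shares. The median change was 0.66 among those higher and -0.59 among those lower, in log2 units of signal plus 1, and over all probe sets it was 0.03. A change of 1 log2 unit or more, which is 2-fold, was reached by 287 higher and 178 lower probe sets, and 13 rose and 9 fell by at least 3 log2 units. The 1 h and 0 h arrays did not overlap at all for 3807 probe sets (16.7%), 2027 of them higher (8.91%) and 1780 lower (7.83%). Lack of overlap was a condition for the 12 largest rises and 12 largest falls named below, so for those genes it adds no support. Values after ± are standard errors of the fitted log2 difference of 1 h minus 0 h with 4 arrays in each group. Where a group's mean signal did not exceed the floor, the fitted change leans on unreliable dim signals, and a lower bound against the floor is given as well. That bound applies to the deposited signals only, not to other processing of the same arrays.

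**Figure D1:**
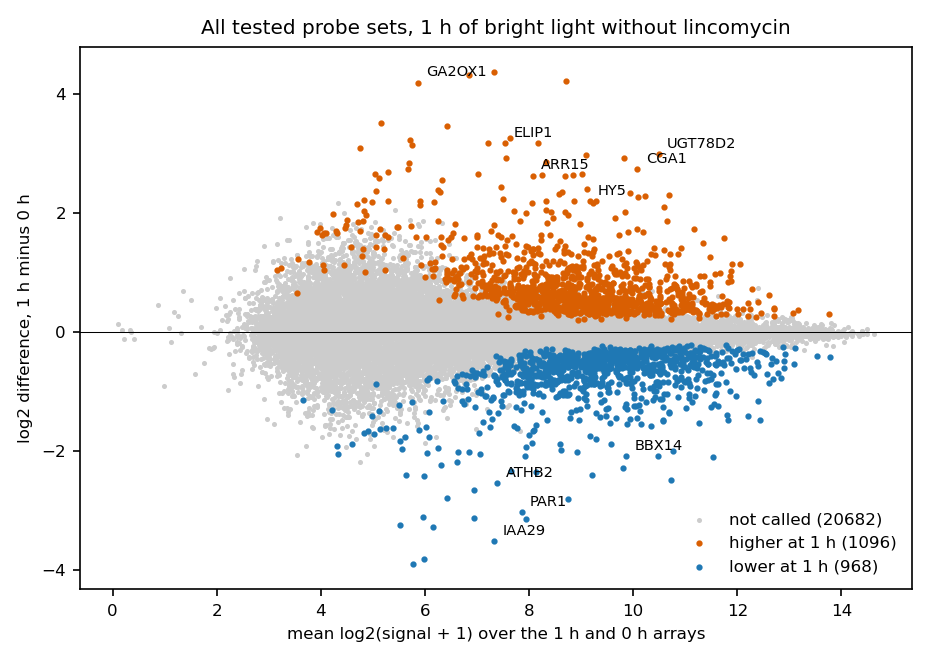
Each point is 1 of 22746 probe sets, with its mean log2 signal over the 8 arrays on the horizontal axis and its log2 difference of 1 h minus 0 h on the vertical axis. Orange points (1096) were called higher and blue points (968) lower at 1 h, and both directions reach beyond 3 log2 units.

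Light signalling genes rose more often than they fell. Of 26 measured genes of that list, 14 were called higher and 1 lower, with a median change of 0.54. HY5, the bZIP activator of greening (AT5G11260), had signals of 1304, 1198, 1229.6 and 1189 on the 1 h arrays and 235, 286, 253 and 296 on the 0 h arrays. Every 1 h array lay above every 0 h array, and the change was 2.20 ± 0.10 (adjusted p = 1.01e-06), which is 4.6-fold. HYH, the close relative that shares part of the work of HY5 (AT3G17609), read 918, 830.4, 844 and 809 on the 1 h arrays and 219, 263, 169 and 222 on the 0 h arrays. Its groups were also separate, with a change of 1.97 ± 0.17 (adjusted p = 4.54e-05).

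Several of the risen genes encode proteins that hold light signalling back. RUP1 (AT5G52250) and RUP2 (AT5G23730) are WD40 proteins that return the ultraviolet-B receptor UVR8 to its inactive state. RUP2 signals were 1332, 1714, 1153 and 1246 on the 1 h arrays and 351, 275, 262 and 286 on the 0 h arrays, a change of 2.20 ± 0.15 (adjusted p = 9.54e-06), and RUP1 changed by 1.82 ± 0.16 (adjusted p = 4.86e-05). The COP1 partners SPA1 and SPA4 rose by 1.04 ± 0.13 and 1.11 ± 0.14 (adjusted p = 0.000653 and 0.000707). The receptor genes PHYA, PHYB, CRY1, CRY2 and UVR8 were not called: PHYA, which encodes the receptor for far-red and very weak light and was the brightest member not called, changed by -0.02 ± 0.06 (adjusted p = 0.893). CRY3, a DNA photolyase of the cryptochrome family found in organelles, rose by 1.33 ± 0.23 (adjusted p = 0.0049).

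B-box proteins are zinc-finger transcription factors, some of which work with HY5 and others against it. The family split: of 23 measured members 10 were called higher and 6 lower. BBX29 and BBX31 also count among the light signalling genes, and BBX14 and BBX16 among the plastid regulators below. BBX29 (AT5G54470) had signals of 615, 672, 616 and 557 on the 1 h arrays and 23.3, 81.6, 85.7 and 95.6 on the 0 h arrays. One 0 h array lay far below the other 3, and the change of BBX29 was 3.26 ± 0.39 (adjusted p = 0.000428). BBX31 (AT3G21890) had signals of 1523, 1828, 1578 and 1257 on the 1 h arrays and 199.9, 203, 240.5 and 148 on the 0 h arrays, with a change of 2.97 ± 0.18 (adjusted p = 5.29e-06). BBX22, an activator that works with HY5, rose by 1.68 ± 0.07 (adjusted p = 8.85e-07), and BBX25 rose by 1.49 ± 0.09 (adjusted p = 3.94e-06). BBX14 (AT1G68520) went the other way, with signals of 455, 387, 445 and 524 on the 1 h arrays and 1772, 1988, 1876 and 2029.6 on the 0 h arrays and a change of -2.09 ± 0.11 (adjusted p = 1.87e-06). The brightest member not called, BBX5, changed by 0.0009 ± 0.11 (adjusted p = 0.999).

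**Figure D2:**
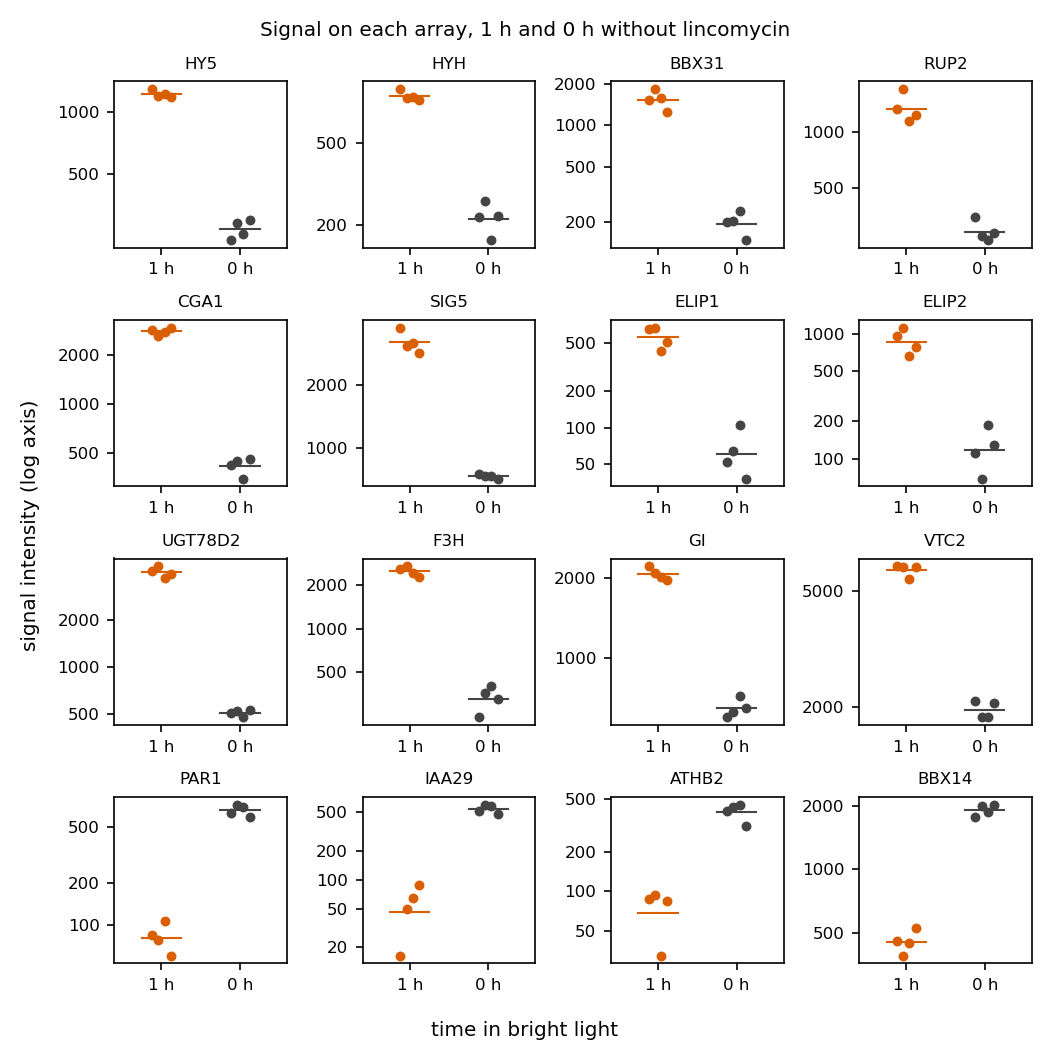
Signal intensity on a log axis for 16 genes, with the 4 arrays at 1 h on the left (orange) and 0 h arrays 1 to 4 on the right (grey) of each panel, each dot 1 array and each line the mean of the log2 values. In all 16 panels the 2 groups are separate, with the 1 h arrays below the 0 h arrays for PAR1, IAA29, ATHB2 and BBX14. For BBX31, ELIP1, UGT78D2, F3H, PAR1, IAA29 and ATHB2 this separation was a condition of their rank among the largest changes.

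Several nuclear regulators of plastid development rose within the hour. Most genes for the photosynthetic machinery were not called, as was true of most probe sets (9.07% called). Of 12 measured regulators 6 were called higher and 1 lower, with a median of 0.40. CGA1, a GATA factor that promotes chlorophyll synthesis and chloroplast division (AT4G26150), had signals of 2854, 2633, 2753 and 2949 on the 1 h arrays and 421, 449.7, 348 and 462 on the 0 h arrays. Its change of 2.74 ± 0.09 (adjusted p = 2.08e-07) was 6.68-fold, and its paralog GNC rose by 1.35 ± 0.11 (adjusted p = 3.47e-05). SIG5, a sigma factor that directs the plastid RNA polymerase and is known for its blue light induction (AT5G24120), had signals of 3731, 3054, 3154 and 2832 on the 1 h arrays and 757, 742, 737 and 718 on the 0 h arrays, and it changed by 2.10 ± 0.10 (adjusted p = 1.14e-06). The other sigma factors measured (SIG1, SIG2, SIG3, SIG4 and SIG6) were not called, SIG1 with a change of -0.03 ± 0.07. BBX16 rose by 2.01 ± 0.17 (adjusted p = 4.09e-05). GLK1, an activator of photosynthesis genes, changed by 0.57 ± 0.15 (adjusted p = 0.04), but its arrays overlapped and the call was lost in 7 of 8 fits that each left out 1 array, all but the one without 0 h array 3, with changes of 0.50 to 0.72.

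The counts in the lists that follow stand beside 4.82% called higher and 4.26% called lower over all probe sets. Among photosystem and electron transport genes 2 of 29 were called, both higher, with a median of 0.03, the same as that of all probe sets at this precision. FD1, a leaf-type ferredoxin, rose by 0.86 ± 0.07 (adjusted p = 3.06e-05), whereas PSBO1, a subunit of the oxygen-evolving complex and the brightest member not called, changed by -0.05 ± 0.06. In the light-harvesting antenna 1 of 13 was called, LHCB7, which rose by 0.93 ± 0.13 (adjusted p = 0.001). In the Calvin cycle 2 of 15 were called higher, with FBA1, a plastid aldolase, at 0.39 ± 0.07 (adjusted p = 0.00591). Chlorophyll and haem synthesis had 4 of 30 called higher and none lower. GUN4, which assists magnesium chelatase at the branch to chlorophyll, rose by 0.43 ± 0.07 (adjusted p = 0.00209), and CAO, which makes chlorophyll b, by 0.38 ± 0.08 (adjusted p = 0.0105). CHLP, the brightest member not called, changed by -0.0009 ± 0.08. Transcripts of the plastid genome had 5 of 71 called higher and a median of 0.09. Those of the mitochondrial genome had 0 of 28 called.

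Photoprotection had the largest share of members called higher among the lists: 10 of 13 higher and none lower, with a median of 0.45. ELIP1 and ELIP2 are early light-induced proteins that bind pigment in stressed thylakoids. ELIP1 (AT3G22840) had signals of 652, 670.3, 433 and 507 on the 1 h arrays and 52.6, 64.8, 106 and 37.9 on the 0 h arrays. ELIP2 (AT4G14690) had signals of 947, 1116, 664 and 778 on the 1 h arrays and 113, 69.8, 186 and 130.0 on the 0 h arrays. Both genes varied widely between arrays of one group, and the changes were 3.17 ± 0.43 (adjusted p = 0.0009) and 2.86 ± 0.32 (adjusted p = 0.000253). The groups did not overlap, which for ELIP1 was a condition of its rank. FTSH5, a thylakoid protease subunit that helps to clear damaged photosystem II protein, rose by 0.83 ± 0.07 (adjusted p = 3.64e-05). Its partner FTSH2 changed by 0.16 ± 0.07 (adjusted p = 0.231), and SEP2, a small relative of the antenna proteins, rose by 0.66 ± 0.09 (adjusted p = 0.00114).

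In the carotenoid list 5 of 17 were called higher and 1 lower. The beta-carotene hydroxylases BCH1 and BCH2, which open the xanthophyll branch, rose by 0.60 ± 0.08 and 0.98 ± 0.14 (adjusted p = 0.000642 and 0.00139), and ZEP, zeaxanthin epoxidase, rose by 0.42 ± 0.07 (adjusted p = 0.00317). PSY, phytoene synthase at the head of the pathway, changed by 0.33 ± 0.07 (adjusted p = 0.0161), a call lost without 1 h array 1, where the change was 0.29 (adjusted p = 0.0503). NCED3, which cleaves epoxycarotenoids towards abscisic acid, changed by -0.99 ± 0.14 (adjusted p = 0.00125), and its sign depended on which 0 h arrays were used: against 0 h arrays 5 to 8 the difference was 0.87. Among antioxidant genes 1 of 19 was called, where 9.07% of all probe sets were. That was VTC2 (AT4G26850), which catalyses the first committed step of ascorbate synthesis, with signals of 6083, 6017, 5513 and 6050.0 on the 1 h arrays and 2111, 1850.2, 1855 and 2066 on the 0 h arrays and a change of 1.59 ± 0.10 (adjusted p = 5.29e-06). CAT3, a catalase and the brightest of the members not called, changed by -0.02 ± 0.10.

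Phenylpropanoid genes moved unevenly. Of 27 measured flavonoid and anthocyanin genes 6 were called higher and 1 lower, with a median of 0.24. UGT78D2, a flavonoid 3-O-glucosyltransferase (AT5G17050), had signals of 4124, 4442, 3729 and 3941 on the 1 h arrays and 510.3, 523, 476 and 529.6 on the 0 h arrays, and its 7.94-fold rise (2.99 ± 0.15, adjusted p = 1.87e-06) was steady over the arrays. F3H, flavanone 3-hydroxylase (AT3G51240), had signals of 2560.5, 2702, 2413 and 2286 on the 1 h arrays and 245, 359, 403 and 329 on the 0 h arrays, a change of 2.92 ± 0.16 (adjusted p = 3.62e-06). UGT84A2, which glucosylates sinapate on the way to ultraviolet-absorbing esters, rose by 2.65 ± 0.13 (adjusted p = 1.87e-06). CHS, chalcone synthase at the entry to the pathway, had signals of 929.8, 711, 950.2 and 567 on the 1 h arrays and 357, 478, 442 and 373 on the 0 h arrays. Its groups did not overlap, but the change of 0.91 ± 0.44 did not pass the test (adjusted p = 0.278). The spread behind that standard error was estimated in a fit that also held the 0.5 h arrays. The MYB regulators MYB12, of flavonols, and PAP1, of anthocyanins, rose by 1.59 ± 0.21 (adjusted p = 0.000834) and 2.56 ± 0.46 (adjusted p = 0.00543). The 0 h mean of PAP1 did not exceed the floor, and its rise against the floor was at least 1.87. PAL1, which makes cinnamate for the whole phenylpropanoid network and was the brightest member not called, changed by -0.26 ± 0.12.

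**Figure D3:**
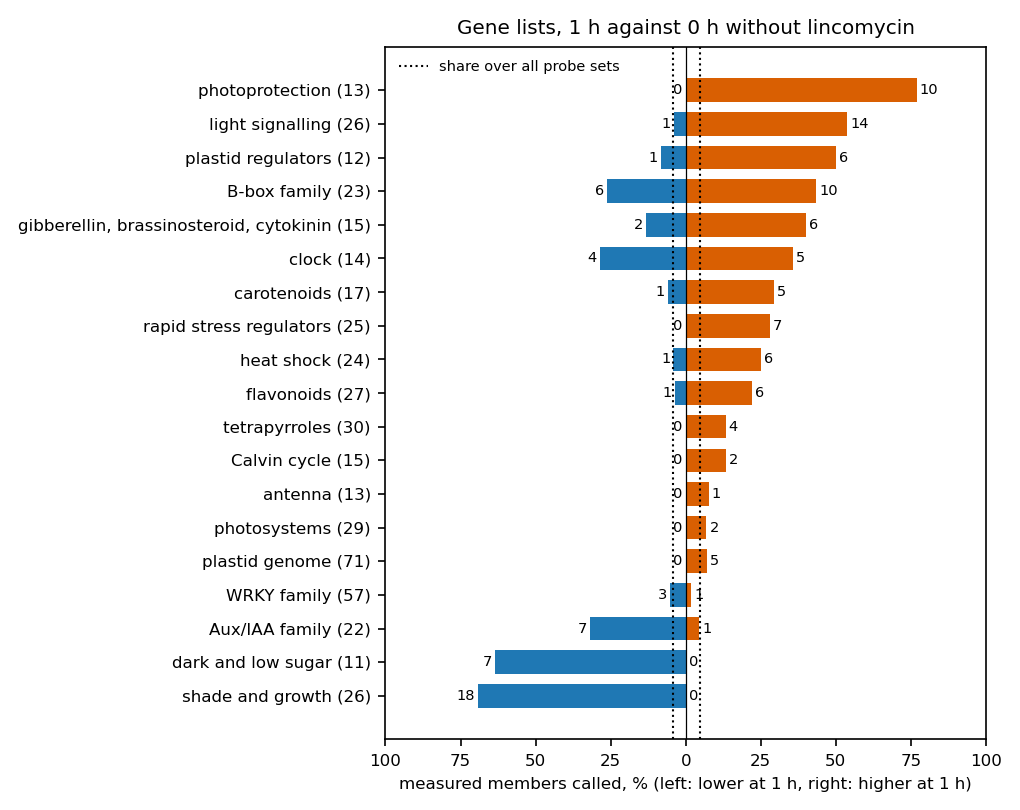
Share of the measured members of each gene list that was called lower (blue, to the left) or higher (orange, to the right) at 1 h, in percent, with the number of members in parentheses beside each list, the number called at the end of each bar, and dotted lines at the shares over all probe sets (4.82% higher and 4.26% lower). Photoprotection (10 of 13 higher) and shade and growth genes (18 of 26 lower) stand at the ends.

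Shade and growth genes fell together: 18 of 26 were called lower and none higher, with a median of -0.60. PAR1, an atypical bHLH protein that blunts shade avoidance (AT2G42870), had signals of 84.7, 77.5, 106 and 59.9 on the 1 h arrays and 632, 726, 699.6 and 595 on the 0 h arrays. The change was -3.02 ± 0.16 (adjusted p = 2.14e-06), an 8.14-fold fall. ATHB2, a homeodomain-leucine zipper gene that is the classic marker of shade (AT4G16780), had signals of 86.4, 94.1, 32.1 and 83.4 on the 1 h arrays and 412, 439, 457 and 316 on the 0 h arrays. One 1 h array was well below the other 3, and the change was -2.54 ± 0.33 (adjusted p = 0.000661). Its relative HAT3 changed by -1.58 ± 0.25 (adjusted p = 0.00237). Among the PIF genes, PIF3 changed by -0.86 ± 0.10, PIF5 by -0.54 ± 0.10 and PIF4 by -0.53 ± 0.11 (adjusted p = 0.000248, 0.00631 and 0.0103). PIF4 was 0.18 above 0 when 0 h arrays 5 to 8 were the base. HFR1, a bHLH protein that restrains the PIFs, changed by -0.44 ± 0.11 (adjusted p = 0.0289). That call was lost in 6 of 8 fits that each left out 1 array, all but those without 1 h array 4 and 0 h array 3, with changes of -0.49 to -0.38.

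Auxin-responsive genes were part of the fall, and IAA29 counts both here and in the shade and growth list. Aux/IAA proteins repress auxin responses and are themselves induced by auxin, and of 22 measured 7 were called lower and 1 higher. IAA29, a shade-induced member (AT4G32280), had signals of 16.2, 49.9, 64.5 and 88.8 on the 1 h arrays and 516, 601, 582 and 475 on the 0 h arrays. The mean of the 1 h arrays was at the floor, so that the fitted change of -3.51 ± 0.42 (adjusted p = 0.000413) comes with a fall against the floor of at least 3.11. IAA28 went up, by 0.82 ± 0.09 (adjusted p = 0.000248). SAUR genes, small auxin-induced genes tied to cell expansion, had 13 of 56 called lower and 5 higher. The largest fall among them, AT4G34770 (SAUR1), had signals of 10.6, 7.56, 17.8 and 43.0 on the 1 h arrays and 351, 252, 189.9 and 185 on the 0 h arrays, which is at least 2.24 log2 units against the floor.

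Hormone metabolism and cytokinin signalling contained some of the largest single changes. Of 15 measured genes 6 were called higher and 2 lower. GA2OX1 (AT1G78440), which inactivates gibberellin, had signals of 261, 282, 216 and 242 on the 1 h arrays and 28.8, 10.1, 6.94 and 12.4 on the 0 h arrays, with a 0 h mean below the floor. The fitted change was 4.19 ± 0.37 (adjusted p = 5.46e-05), and the rise was at least 2.38 against the floor. GA20OX2, which makes gibberellin, moved the other way by -2.03 ± 0.32 (adjusted p = 0.00259), at least 1.37 against the floor at 1 h. Of the type-A response regulators, which damp cytokinin signalling, ARR15 (AT1G74890) had signals of 596, 686, 690.0 and 700.2 on the 1 h arrays and 85.3, 128, 153 and 78.1 on the 0 h arrays, a change of 2.63 ± 0.19 (adjusted p = 1.37e-05). ARR16 rose by 1.45 ± 0.09 (adjusted p = 5.29e-06). CPD, a brassinosteroid synthesis enzyme and the brightest member not called, changed by -0.19 ± 0.09.

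In the circadian clock list 5 of 14 were called higher and 4 lower. GI, which links the clock to flowering time (AT1G22770), had signals of 2223, 2086, 2015 and 1978 on the 1 h arrays and 601, 627, 725 and 649 on the 0 h arrays, with a change of 1.67 ± 0.08 (adjusted p = 1.39e-06). ELF4, an evening complex member, rose by 1.10 ± 0.14 (adjusted p = 0.000638), and the morning factor CCA1 by 0.59 ± 0.06 (adjusted p = 0.00016). LHY, the partner of CCA1, changed by 0.21 ± 0.08 (adjusted p = 0.136), and its arrays did not overlap. COR27, a repressor of evening genes, changed by -0.93 ± 0.09 (adjusted p = 7.77e-05). The REVEILLE and LNK co-activator list had 4 of 9 called higher and 1 lower, led by LNK1 at 1.23 ± 0.11 (adjusted p = 7.38e-05). ASG4, a MYB-like factor of the REVEILLE type (AT1G01520), was outside that list and among the largest rises of all, with signals of 969.7, 926, 838 and 749 on the 1 h arrays and 147, 150.2, 69.5 and 54.3 on the 0 h arrays and a change of 3.17 ± 0.30 (adjusted p = 8.21e-05).

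Stress regulators rose in part. Of 25 rapid stress regulators 7 were called higher and none lower, with a median of -0.003. CBF3, a cold-response activator, rose by 1.54 ± 0.21 (adjusted p = 0.000905), the zinc-finger repressor ZAT10 by 1.39 ± 0.22 (adjusted p = 0.00235) and DREB2A, which acts in drought and heat, by 1.29 ± 0.10 (adjusted p = 1.57e-05). TCH4, the touch-induced cell wall enzyme and the brightest member not called, changed by -0.12 ± 0.12. At 0.5 h it had changed by -0.68 ± 0.12 (adjusted p = 0.0251), and its step to 1 h was 0.56 ± 0.12 (adjusted p = 0.0396). The call of that step was lost in 7 of 8 fits that each left out 1 array. In the heat shock list 6 of 24 were called higher and 1 lower. HSP70 (AT3G12580) rose by 1.26 ± 0.15 (adjusted p = 0.000321) and the co-activator MBF1C by 1.08 ± 0.15 (adjusted p = 0.00095). HSFA2, a heat shock factor, had signals of 114, 69.9, 106 and 53.0 on the 1 h arrays and 10.9, 9.74, 19.7 and 10.6 on the 0 h arrays, all dim at 0 h, so its fitted change of 2.65 ± 0.30 (adjusted p = 0.000273) is at least 0.79 against the floor. HSC70-1, a constitutive chaperone, changed by 0.05 ± 0.07. WRKY factors, known from defence, had 1 of 57 called higher and 3 lower, where 4.82% and 4.26% of all probe sets were. WRKY15 changed by -0.82 ± 0.09 (adjusted p = 0.000248).

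Genes that darkness and sugar starvation raise had 7 of 11 called lower and none higher, with a median of -0.41. TPS8, a trehalose phosphate synthase-like protein (AT1G70290), had signals of 1357, 1238, 1282 and 1369 on the 1 h arrays and 2231, 2549.6, 2266 and 2688 on the 0 h arrays, a change of -0.89 ± 0.13 (adjusted p = 0.00153). AKINBETA1, a subunit of the SnRK1 energy-sensing kinase, changed by -0.80 ± 0.08 (adjusted p = 0.000142), DIN10 by -0.53 ± 0.10 (adjusted p = 0.00834) and DRM1 by -0.46 ± 0.07 (adjusted p = 0.00312). ASN1, the dark-induced asparagine synthetase and the brightest member not called, changed by -0.08 ± 0.07 (adjusted p = 0.612). None of 6 ribosome biogenesis genes and none of 5 reference genes was called, where 9.07% of all probe sets were. ACT2, an actin gene used as a reference, changed by -0.07 ± 0.06.

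Ranked over the probe sets that name 1 gene, the largest rises included loci that carry no gene name in the tables used here. AT5G42760 had signals of 754, 805, 727 and 625 on the 1 h arrays and 58.3, 21.0, 58.1 and 18.6 on the 0 h arrays, and AT3G52740 had signals of 402, 676, 569 and 457 on the 1 h arrays and 12.2, 33.7, 49.1 and 18.9 on the 0 h arrays. Neither 0 h mean exceeded the floor, and the rises were at least 3.81 and 3.43 against it (fitted 4.37 ± 0.35 and 4.31 ± 0.36, adjusted p = 3.21e-05 and 3.53e-05). AT3G56260 likewise had a 0 h mean that did not exceed the floor, with a rise of at least 2.56. AT2G15020 had signals of 495, 496, 425 and 377 on the 1 h arrays and 65.0, 53.2, 37.5 and 42.9 on the 0 h arrays, close to the floor at 0 h, with a fitted change of 3.17 ± 0.20 (adjusted p = 5.29e-06). AT3G44450 had signals of 479.6, 573, 507 and 527 on the 1 h arrays and 76.5, 35.4, 95.9 and 80.1 on the 0 h arrays, with one 0 h array below the floor, and a change of 2.93 ± 0.32 (adjusted p = 0.00021).

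Among the largest falls, AT5G50335 fell by at least 2.06 against the floor at 1 h, and DJC24 (AT2G17880), which encodes a J-domain protein, by at least 2.13. DTX50 (AT5G52050), a MATE transporter that exports abscisic acid, had signals of 28.4, 38.8, 34.6 and 72.3 on the 1 h arrays and 378, 350.3, 336 and 394 on the 0 h arrays, a fall of at least 2.77 (adjusted p = 3.05e-05). GATA2, a GATA factor that promotes light responses, fell by at least 2.30 (adjusted p = 0.0035). AT4G10910, AT5G62280 and AT3G07350 had means above the floor in both groups and changed by -3.14 ± 0.22, -2.79 ± 0.16 and -2.48 ± 0.12 (adjusted p = 1.3e-05, 3.84e-06 and 1.14e-06). TAT3, a jasmonate-responsive tyrosine aminotransferase, changed by -2.78 ± 0.74 (adjusted p = 0.0418), at least 1.76 against the floor at 1 h. Its call was lost in 6 of 8 fits that each left out 1 array, all but those without 1 h arrays 1 and 2, with changes of -3.26 to -2.12.

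The 1 h arrays were also tested directly against the 0.5 h arrays, in the same fit, to ask what moved between 0.5 h and 1 h. This step had 624 probe sets called (2.74%), 312 higher (1.37%) and 312 lower (1.37%), while 0.5 h against 0 h had 273 called (1.2%), 134 higher (0.589%) and 139 lower (0.611%). The step count was 396, 394 and 376 without 1 h arrays 1, 2 and 3, and 382 without 0.5 h array 4. The 0.5 h and 1 h comparisons share their 0 h arrays, and their values are given side by side. ELIP1 changed by 0.39 at 0.5 h and by 3.17 at 1 h, a step of 2.78 ± 0.43 (adjusted p = 0.00662). Its signals were 652, 670.3, 433 and 507 at 1 h and 112, 40.6, 56.4 and 158 at 0.5 h. No overlap between these groups was a condition of the ranking of step rises, which ELIP1 led. ELIP2 had a step of 2.16 ± 0.32 (adjusted p = 0.00548), AT5G42760 one of 2.76 ± 0.35, GA2OX1 one of 2.38 ± 0.37 (at least 2.17 against the floor), AT3G44450 one of 2.15 ± 0.32 and LEA3, a late embryogenesis abundant family member, one of 1.91 ± 0.19. Falls in the step were ranked only for genes with the median signal or more in 1 of the 2 groups and no overlap, and there AT3G62950 was first at -2.27 ± 0.42 (adjusted p = 0.0163; at least 1.88 against the floor), a call lost in 2 of 8 fits, those without 1 h array 2 and without 0.5 h array 4, with changes of -2.57 to -1.90 over all 8. Below that signal limit, AT5G50335 had a fitted step of -3.38 ± 0.46 (adjusted p = 0.00363) and DTX50 one of -2.23 ± 0.25 (adjusted p = 0.00136), at least 1.54 and 1.88 against the floor. Above it, BEE3, a brassinosteroid-induced bHLH factor, followed AT3G62950 with -1.76 ± 0.29 (adjusted p = 0.00964), then SIS, a salt-induced serine-rich protein, with -1.60 ± 0.13 and BBX14 with -1.49 ± 0.11. AT5G02760 and AT4G10910 had steps of -1.38 ± 0.21 and -1.34 ± 0.22.

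Other genes had already changed at 0.5 h. ARR15 had changed by 2.91 ± 0.19 at 0.5 h, and the step to 1 h was -0.29 ± 0.19 (adjusted p = 0.597). SAUR1 had fallen by at least 2.27 against the floor at 0.5 h (fitted -4.22 ± 0.44), and since its means were below the floor at both 0.5 h and 1 h no step could be measured. CBF3 was 1.93 ± 0.21 at 0.5 h with a step of -0.38 ± 0.21 (adjusted p = 0.476). The steps of ARR15 and CBF3 did not pass the test, which does not show that the levels were equal.

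The 4 h and 24 h arrays were compared with 0 h arrays 5 to 8, so these contrasts share no array with the 1 h contrast. They called far more probe sets, 39.7% at 4 h (20.1% higher and 19.6% lower) and 42.2% (9601) at 24 h (18.6% higher and 23.6% lower). Array 4 at 24 h stood apart and was left out, and with it the 24 h count was 6202. Of the 1096 probe sets higher at 1 h, 699 (63.8%) were called higher and 72 (6.57%) lower at 4 h, and 529 (48.3%) were called higher and 158 (14.4%) lower at 24 h. Of the 968 lower at 1 h, 732 (75.6%) were called lower and 27 (2.79%) higher at 4 h, and 726 (75.0%) were called lower and 57 (5.89%) higher at 24 h. The same sign at 4 h, called or not, was found for 82.9% of those higher at 1 h, where 46.2% of all probe sets were above 0, and for 90.8% of those lower, where 53.8% of all were below 0.

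Later levels of the named genes took several courses. F3H changed by 2.92 ± 0.16 at 1 h, 5.12 ± 0.15 at 4 h and 3.22 ± 0.16 at 24 h, and ELIP1 by 3.17, 4.92 ± 0.18 and 3.07 ± 0.19. CHS, which did not pass at 1 h, stood 6.30 ± 0.31 above its 0 h base at 4 h (adjusted p = 7.04e-07). HY5 changed by 1.40 ± 0.12 at 4 h and by -0.49 ± 0.13 at 24 h, where it was called lower (adjusted p = 0.0108), and CGA1 by 1.96 ± 0.11 and -0.91 ± 0.12. The 24 h call of HY5 was lost with array 4 kept, where the change was -0.32 ± 0.19 (adjusted p = 0.268). ARR15 and ASG4 were not called at 4 h or 24 h: ARR15, with a mean below the floor on 0 h arrays 5 to 8, changed by 0.62 ± 0.31 at 4 h and 0.29 ± 0.33 at 24 h, and ASG4 by 0.11 ± 0.12 and 0.09 ± 0.13. Among the falls, SIS changed by -2.10 at 1 h, -4.65 ± 0.18 at 4 h and -4.28 ± 0.20 at 24 h, and BEE3 was -0.10 ± 0.12 at 4 h and -0.19 ± 0.13 at 24 h, neither called. No 1 h value was tested directly against a 4 h or 24 h value, since their 0 h bases differ.

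**Figure D4:**
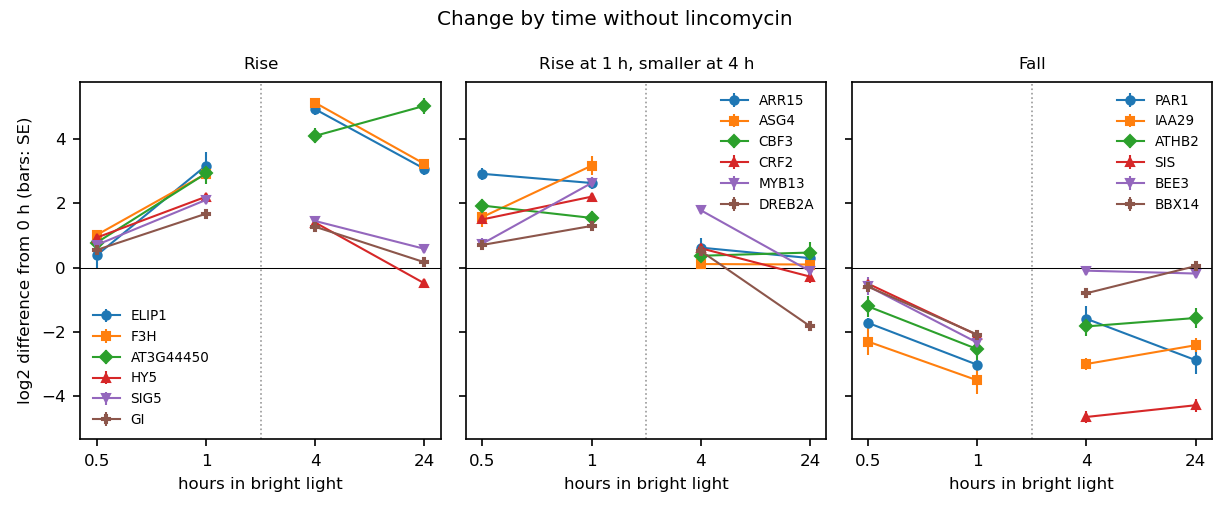
Log2 difference from 0 h in hours of bright light for 18 genes, with standard errors, where 0.5 h and 1 h are against 0 h arrays 1 to 4 and, right of the dotted line, 4 h and 24 h are against 0 h arrays 5 to 8. ARR15 and ASG4 are high at 1 h and near 0 at 4 h and 24 h, while F3H and ELIP1 stay high.

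With lincomycin in the medium from sowing, 1 h of bright light gave 456 calls (2.0%), 271 higher (1.19%) and 185 lower (0.813%), over 3 arrays at 1 h and 4 at 0 h. The difference between the responses, with minus without the drug, was tested in one fit of 23 early arrays and was called for 130 probe sets (0.572%), 80 above 0 (0.352%) and 50 below (0.22%). After quantile scaling it was 61 above and 24 below, and the total was 79 and 77 without 1 h array 2 or 4 of the seedlings with lincomycin, and 79 and 86 without 1 h array 3 or 0 h array 2 of those without it. Of the probe sets higher at 1 h without the drug, 225 of 1096 were also called higher with it and none lower, and 80.0% had the same sign, where 43.8% of all probe sets were above 0. Of those lower, 126 of 968 were also called lower, 4 were called higher, and 83.5% had the same sign, where 56.2% of all were below 0.

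Of the 26 measured light signalling genes, 13 were called higher and 1 lower with lincomycin, and none had a called difference between the responses. HY5 changed by 3.13 ± 0.17 with lincomycin and 2.20 ± 0.10 without, a difference of 0.93 ± 0.24 that was not called (adjusted p = 0.0985). Among genes of other lists, CGA1 changed by 2.80 ± 0.24 with lincomycin and 2.74 ± 0.09 without, and SIG5 by 2.64 ± 0.13 and 2.10 ± 0.10. ELIP1 changed by 2.92 ± 0.62 with lincomycin and 3.17 ± 0.43 without, a difference of -0.25 ± 0.85 (adjusted p = 0.966), and ATHB2 by -2.38 ± 0.46 and -2.54 ± 0.33. Differences that miss the threshold do not show that the responses were alike.

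Among the differences below 0 were rises that were smaller with the drug. With the same limit on signal, ARR15 was first of these. Its signals were 74.4, 95.1 and 117 on the 1 h arrays with lincomycin and 88.5, 71.9, 92.0 and 80.5 on the 0 h arrays with lincomycin. The response was 0.18 ± 0.26 with lincomycin and 2.63 ± 0.19 without, a difference of -2.45 ± 0.35 (adjusted p = 0.0028). ARR16 had a difference of -1.10 ± 0.15 (adjusted p = 0.00129) and CRF2, a cytokinin response factor, one of -1.91 ± 0.23 (adjusted p = 0.000479). MYB13, BLH6 (a homeodomain protein) and AT3G48460 had differences of -1.85 ± 0.31, -1.72 ± 0.21 and -1.53 ± 0.17. PCS1, an aspartic protease, had a difference of -1.91 ± 0.37 (adjusted p = 0.0183), a call lost without 1 h lincomycin array 2 or 4, with values of -2.13 to -1.70 over the 15 fits that each left out 1 array. The mean log2 signal of PCS1, without and with lincomycin, was 7.67 and 7.30 at 1 h but 6.43 and 7.97 at 0 h. HSFA2, dim at 0 h, had a difference of -2.99 ± 0.67 (adjusted p = 0.0484), lost in 11 of 15 such fits, with values of -3.49 to -2.47. VTC2 rose by 0.83 ± 0.10 with lincomycin and 1.59 ± 0.10 without (adjusted p = 0.00856 for the difference).

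Differences above 0 included genes that fell at 1 h without the drug. AT4G18650 had signals of 118, 113 and 104 on the 1 h arrays with lincomycin and 22.5, 60.7, 36.2 and 17.3 on the 0 h arrays with lincomycin, against 253, 299.9, 297 and 266 on the 1 h arrays and 741, 701, 580.1 and 841 on the 0 h arrays without it. It changed by 1.84 ± 0.37 with the drug, at least 0.85 against the floor, and by -1.35 ± 0.12 without it, a difference of 3.19 ± 0.50 (adjusted p = 0.0055). Against 0 h arrays 5 to 8 the change without the drug was 0.07. SAUR6 (AT2G21210) rose by 0.90 ± 0.15 with the drug (adjusted p = 0.00118) and changed by -0.98 ± 0.09 without it (adjusted p = 6.15e-05), a difference of 1.88 ± 0.20. AT4G10910, AT3G07350 and GATA4 had differences of 2.04 ± 0.32, 1.87 ± 0.23 and 1.83 ± 0.20, and SIS one of 1.51 ± 0.22. In mean log2 signal, without and with lincomycin, AT3G07350 stood at 9.49 and 9.41 at 1 h but at 11.97 and 10.02 at 0 h. SAUR6 stood at 9.94 and 10.16 at 1 h and at 10.92 and 9.26 at 0 h. GATA4 differed at both times, with 8.67 and 9.86 at 1 h and 10.94 and 10.30 at 0 h. These levels were not tested and cross arrays of unlike Dap level. PAR1 fell in both, with changes of -1.54 ± 0.20 with lincomycin and -3.02 ± 0.16 without, and a difference of 1.48 ± 0.28 (adjusted p = 0.0164).

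**Figure D5:**
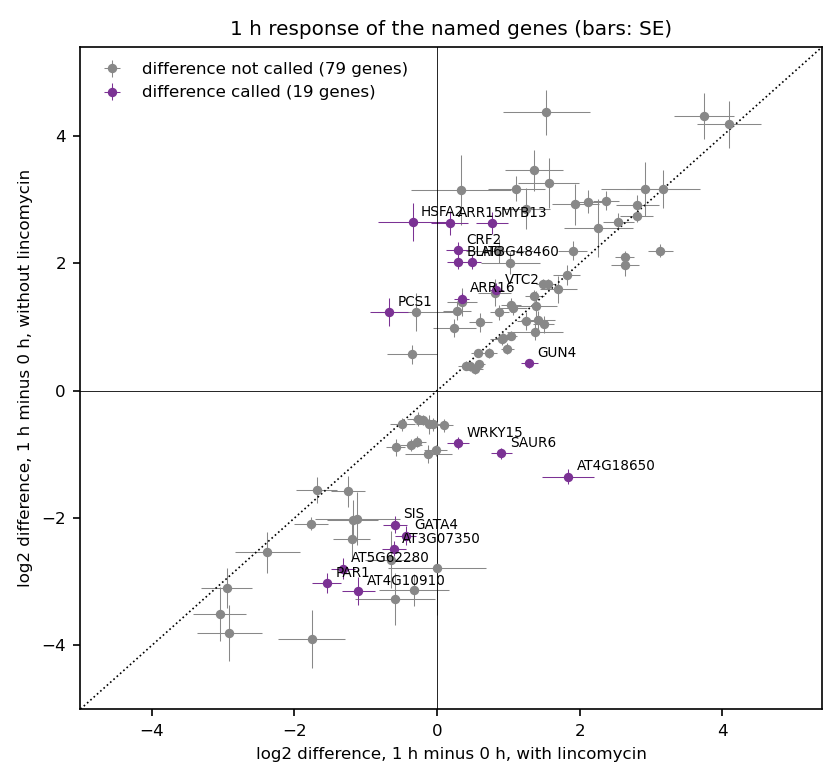
Log2 difference of 1 h minus 0 h for the named genes called at 1 h without lincomycin, with the response of lincomycin seedlings on the horizontal axis, that of seedlings without it on the vertical axis, standard errors as bars and a dotted line of equal response. Purple points, among them ARR15 and CRF2 above the line and AT4G18650 below it, had a called difference.

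The authors' deposited table of comparisons holds a log ratio, of unstated base, for 1 h without lincomycin. All 123 genes that the naming rule or later choice picked and that were called here had the same sign in the authors' deposited table, and 117 of them had a p-value under 0.05 there. For ELIP1, PAR1 and HSFA2 the authors' deposited table gave 3.92, -4.39 and 0.14. Read as log2, its ratios were smaller in size than the bounds given above for HSFA2, AT3G56260 (1.26), GA20OX2 (-0.45) and PAP1 (0.72). They were larger than the bounds for AT5G42760 (5.46) and DTX50 (-3.37), for example. That table rests on the same arrays and is no independent evidence.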

How the data were processed

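The authors deposited 1 table of signal intensity per probe set and array, scaled to a common trimmed mean. MAS5 and GCRMA appear in the submitters' processing notes with neither role nor version. The authors' deposited comparison table gives log ratios, read here as log2 with no base given in the file, each beside a p-value from an unnamed test. RNA was labelled with a one-cycle kit from 5 µg of total RNA, per the labels' protocols.

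Signals were taken as log2(signal + 1). Limma 3.58.1 in R 4.3.3 (lmFit, eBayes) was fitted to 12 arrays without lincomycin (0 h numbers 1 to 4, 0.5 h, 1 h; 9 residual degrees of freedom), with Benjamini-Hochberg adjustment over 22746 probe sets (64 controls left out) and a call at adjusted p under 0.05. The lincomycin difference used 23 arrays. Of these probe sets, 21463 named 1 gene, and a gene with several was read from the brightest. Bounds used each array's first quartile. The fits were tested on simulated data with 100 changes of 1 log2 unit and 100 of 2. At 1 h, 57 and 75 of these were recovered, with 9 false calls. The step recovered 62 and 67, with 10 false calls, and the lincomycin difference 36 and 66, with 6. A gene not called may therefore have changed.

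Genes and lists were chosen with earlier results of these data known. Lists can share genes, so their counts are not independent of each other. The text names the 12 largest non-overlapping rises and 12 largest falls above the median signal, up to 4 called members and the brightest uncalled member of each list, a fixed set of light markers, and the 6 largest changes each way for the step and the lincomycin difference. A further 13 genes (SPA1, SPA4, CRY3, BBX22, BBX25, GNC, HAT3, PIF3, PIF4, PIF5, UGT84A2, PKS4, EDL3) were picked after their values were seen. Some genes under the rule are given only within counts. PIL1 and PRR9, in the fixed set, had no probe set naming them alone. Promoter motifs were not analysed here.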

Additional observations from a re-analysis of the deposited data

Results flagged for a closer look

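In 8 of 226 groups of 4 arrays over the named genes (3.54%), 1 array stood apart from the other 3 by Dixon's test on the log2 signals, where chance gives about 1 in 20. The gap to the nearest array, as a share of the group's range, was 0.887 for ATHB2, 0.870 for ARR15, 0.911 for CPD, 0.889 for VTC2 and 0.911 for ZAT10 on the 1 h arrays. On the 0 h arrays it was 0.886 for BBX29, 0.911 for GATA2 and 0.849 for HSFA2.

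The 1 h response differed with and without lincomycin, by limma's test of the difference itself, for 19 of the 113 named genes. Differences in log2 units, with minus without the drug, were above 0 for AT4G18650 (3.19), AT4G10910 (2.04), SAUR6 (1.88), AT3G07350 (1.87), GATA4 (1.83), SIS (1.51), PAR1 (1.48), AT5G62280 (1.48), WRKY15 (1.12) and GUN4 (0.87). They were below 0 for HSFA2 (-2.99), ARR15 (-2.45), PCS1 (-1.91), CRF2 (-1.91), MYB13 (-1.85), BLH6 (-1.72), AT3G48460 (-1.53), ARR16 (-1.10) and VTC2 (-0.75). GUN4 lost its call without 1 h lincomycin array 2 or 4, and WRKY15 without array 4, with values of 0.78 to 0.94 and 0.96 to 1.23 over the 15 fits.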

How the results depend on the processing

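The 1 h count of 2064 was 1292 with all 47 arrays in the fit, 9467 with 0 h arrays 5 to 8 as the base and 6024 with all 8, and 1555 to 1813 when 1 array was left out. Those bases differ from the 1 h arrays in the Dap control, whose part was not tested. The other settings kept it within 1.5 times. The step count of 624 was 1251 without dim probe sets, 314 with only the groups compared, 329 with all 47 arrays, 1187 with a variance trend and 376 to 521 when 1 array was left out. The lincomycin difference count of 130 was 85 after quantile scaling, 267 without dim probe sets, 306 with 46 arrays, 244 with a variance trend, 2606 and 894 with 0 h arrays 5 to 8 and all 8 as the base, and 77 to 142 when 1 array was left out. Causes were not tested. The 24 h count of 9601 was 6202 with array 4.

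Same-numbered 1 h and 0 h arrays correlated at -0.018, 0.0785, -0.0185 and -0.023 in their deviations from group means, and only number 2 was best matched to its own number. For 1 h and 0.5 h arrays the values were 0.0275, 0.107, -0.0197 and -0.0519, with numbers 1 and 2 best matched to their own. The main fits used no pairing, and 4 arrays in a group cannot exclude it. With the replicate number as a block, counts were 1756 at 1 h, 434 for the step and 78 for the lincomycin difference.

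With 0 h arrays 5 to 8 as the base, 4 named genes turned sign at 1 h: NCED3 (0.87), PIF4 (0.18), XCP1 (0.18) and AT4G18650 (0.0731). Of the 113 named genes, 111 kept sign and call at 1 h after quantile scaling and 113 with a pseudocount of 16.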

Other observations

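Among the probe sets called at 1 h with a change of 3 log2 units or more either way, 1 named no gene here, probe set 266720_s_at, singled out after its values were seen. Its signals were 1705, 1792, 1811 and 1894 on the 1 h arrays and 77.3, 100.7, 98.4 and 113 on the 0 h arrays. The change was 4.21 ± 0.13 (adjusted p = 2.08e-07, limma), and it stood at 1.04 ± 0.10 at 4 h and 0.97 ± 0.11 at 24 h. With lincomycin the 1 h change was 3.83 ± 0.29, and the difference of -0.38 ± 0.40 between the responses was not called (adjusted p = 0.859).

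Below the median signal, and therefore outside the ranking of single genes, were PKS4 and EDL3, also picked after their values were seen. PKS4 (AT5G04190), a phytochrome kinase substrate family member that acts in phototropism, had signals of 19.8, 12.5, 17.1 and 40.0 on the 1 h arrays and 185, 251, 144 and 163 on the 0 h arrays. Its change was -3.10 ± 0.31 (adjusted p = 0.000134), at least 1.86 below 0 h against the floor. With lincomycin it changed by -2.95 ± 0.36. EDL3 (AT3G63060), an F-box protein tied to abscisic acid responses, had signals of 197, 141, 204 and 111 on the 1 h arrays and 19.6, 6.74, 9.6 and 61.4 on the 0 h arrays. Its change was 3.15 ± 0.55 (adjusted p = 0.00459), at least 1.63 against the floor, and 0.33 ± 0.70 with lincomycin, where it was not called. The difference between these responses was not called either.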
